A study of Mus musculus with 15 samples.

Results

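Mouse neural stem cells were stimulated with CD95L-T4, a trimerised construct of the molecule that binds and activates CD95 (Fas), a death receptor, and their total RNA was compared with that of control cultures. The comparison rests on 8 of the 15 arrays of the series, chosen by their titles: 4 biological replicates labelled as treated with CD95L-T4 and 4 labelled as control, both at the level of total RNA. The cells of both groups came from female C57/B16 mice aged 6 weeks and were grown as primary neurospheres, free-floating clusters of stem and progenitor cells. RNA of whole cells, taken 48 h after stimulation in the CD95L-T4 group, was extracted with a column kit, labelled with biotin and hybridised to Affymetrix arrays. The labels give no dose, no time for the control cultures, no description of what these received, no genetic alteration and no batch or date. They call the replicates biological without saying whether they came from separate animals or cultures, so the errors below measure a spread between arrays. Unless stated otherwise, standard errors and intervals draw on the spread within groups over all 15 arrays, not on the 8 compared here alone. Each SD is that of the 4 arrays of a group. In the treated samples the treatment field holds just the cell type, and the group was therefore read from the title.

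CD95 is a receptor of the tumour necrosis factor family. When its trimeric ligand binds, the adaptor FADD and caspase-8 gather at its intracellular death domain, and caspase-8 can start apoptosis directly or through BID and the mitochondria, while c-FLIP (Cflar) holds caspase-8 in check. In neural cells the same receptor is also known to signal without killing, through SRC family kinases and the PI3K, Akt and mTOR pathway, which acts on translation.

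No gene passed the test between CD95L-T4 and control cultures, and the 95% interval bounded the measured change of nearly every gene to less than 1.5-fold. Values are log2 intensities, so a difference of 1 is a 2-fold difference. In limma with Benjamini-Hochberg adjustment over 22626 probe sets, 0 had an adjusted p under 0.05 (0%), and the lowest adjusted p was 0.669, that of Tgfb1. Taking 1 probe set per gene, the share at an unadjusted p under 0.05 was 3.44%, or 426 of 12393 genes, with 270 higher and 156 lower after CD95L-T4. With no difference in any gene, about 1 in 20 would be expected at that p. Among probe sets the count at that unadjusted p was 846 (3.74%), with 507 higher and 339 lower. It was 1688 without CD95L-T4 replicate 1 and 550 without CD95L-T4 replicate 4. A fit of the 8 arrays alone gave 1017, and 1450 when the poly-A labelling controls entered it as a covariate. After quantile normalization over the 8 arrays the split was 377 higher and 494 lower, and with equal medians 295 and 513. Without CD95L-T4 replicates 3 and 4, chosen after seeing the data, the genes at an unadjusted p under 0.05 were 115 higher and 274 lower, so the larger share of higher genes rested on these arrays and on the scaling.

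The differences were small across the whole range of genes. The median log2 difference, CD95L-T4 minus control, was 0.015, and the median size without sign was 0.06. The size was under 0.20 for 95% of genes. The highest value was 0.56 for Rab40b and the lowest was -0.68 for Ddit4. A level 25% higher, or lower by the same ratio, is called the 25% bound here. Beyond it lay 34 genes in the higher and 36 in the lower direction, beyond 1.5-fold 0 and 2 genes, and beyond 2-fold none in either direction. The median standard error was 0.0936, which gave a median 95% interval reaching 1.15-fold to each side of the estimate.

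The interval of a gene shows which sizes of change the arrays still allow. For 9058 of 12393 genes (73.1%) it lay wholly within the 25% bound in both directions, for 12266 (99%) within 1.5-fold and for 12383 (99.9%) within 2-fold. The interval of 127 genes reached past 1.5-fold, and that of 10 past 2-fold. Of all probe sets, 15539 (68.7%) were bounded within the 25% bound and 22213 (98.2%) within 1.5-fold. The plot of differences against brightness shows that most genes named here for a small p are dim and that several far from 0 are genes with a wide interval.

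**Figure D1:**
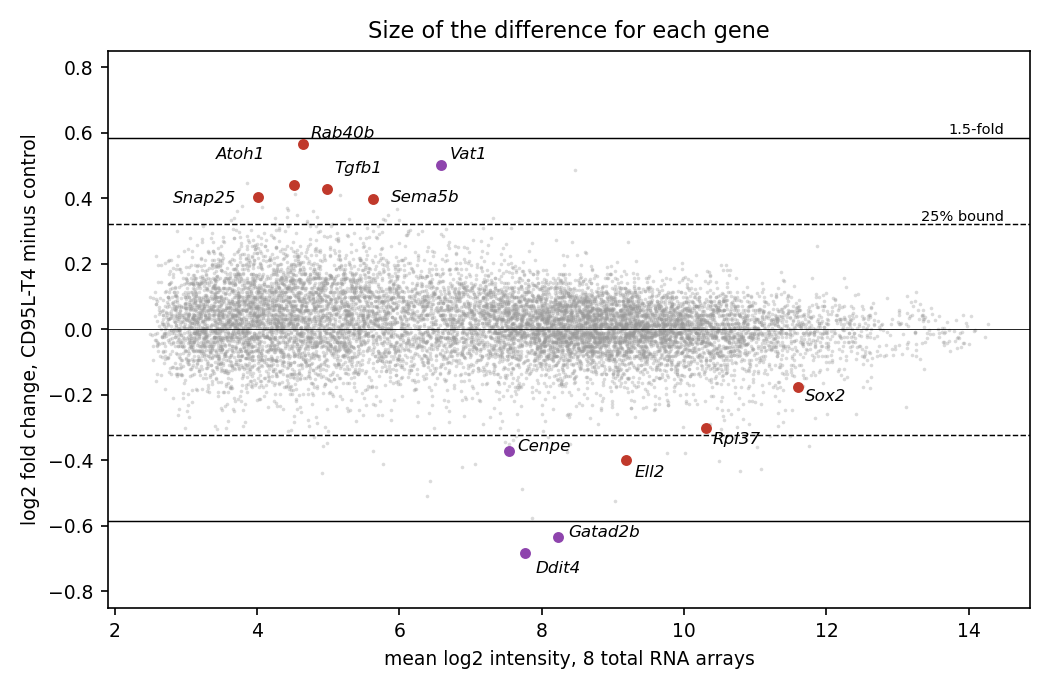
Each grey point is 1 of 12393 genes, at its mean log2 intensity over the 8 total RNA arrays (horizontal) and its log2 difference, CD95L-T4 minus control (vertical); dashed and solid lines mark the 25% bound and 1.5-fold. Red points are genes named for a small p or as the extreme of a list, purple points genes among the 12 with the widest interval, and 2 genes, Ddit4 and Gatad2b, lie beyond the 1.5-fold lines.

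Consistency across arrays was described by whether the 4 values of a group lay wholly above or below the 4 of the other. All CD95L-T4 values were above all control values for 220 genes (1.78%) and below them for 119 genes (0.96%). In 22 of these 339 genes together the difference was beyond the 25% bound, and in none was it over 1.5-fold. The 2 genes beyond 1.5-fold, Ddit4 and Gatad2b, had overlapping groups.

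The arrays did not part by treatment. Pearson correlations over all probe sets were 0.9952 to 0.9973 within CD95L-T4, 0.9971 to 0.9983 within control and 0.9956 to 0.9983 between the groups. The nearest array to CD95L-T4 replicate 1 was control replicate 2 (0.9981), and the nearest to CD95L-T4 replicate 2 was control replicate 1 (0.9983). CD95L-T4 replicates 3 and 4 were nearest each other. The first principal component of the 8 arrays, 34% of the variance, set these latter arrays at -21.0 and -20.4 and the other 6 between 3.29 and 14.2. The second component, 21.7%, set CD95L-T4 replicate 2 and control replicate 1 together at -14.5 and -14.4. The median SD of a probe set was 0.124 in CD95L-T4 and 0.0943 in control, and it was larger in CD95L-T4 for 64.7% of probe sets.

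CD95L-T4 replicates 3 and 4 had a narrower range of values than the other arrays. Their SD over probe sets was 2.59 and 2.60, against 2.64 to 2.67 in the other 6, and their lower quartiles were 4.65 and 4.63 against 4.50 to 4.55. Set against the control mean, 2544 and 2404 of their probe sets differed by more than the 25% bound, against 821 and 952 in CD95L-T4 replicates 1 and 2 and 198 to 492 in control arrays, which are part of that mean. The probe sets were split by brightness into 10 classes of equal number, from class 1 (dimmest) to class 10. In class 3 their medians were 0.11 and 0.10 above the control mean, and in class 10 they were 0.042 and 0.032 below it. CD95L-T4 replicates 1 and 2 ran the other way, with -0.038 and -0.033 in class 3 and 0.015 and 0.0075 in class 10.

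The unadjusted calls followed brightness as well. In class 1, 64 of 88 probe sets at an unadjusted p under 0.05 were higher after CD95L-T4, and in class 10, 8 of 81. The share of probe sets bounded within the 25% bound was lowest in class 3, 50.2%, and highest in class 10, 87%. Within 1.5-fold it was 99.7% in class 1 and 98.3% in class 10. These are bounds on measured intensity, and how far a dim probe set follows a change of its mRNA was not tested. The part of these array differences in the values of single genes was not tested. For a number of the genes and lists described below, the value without CD95L-T4 replicates 3 and 4 stands beside the main one. Among genes it is given mostly where these arrays held the extreme values, so those genes do not stand for all. Of 115 named genes, 14 moved by at least 1 within-group SD without these arrays, and 16 changed sign. Others moved little, such as Mchr1 (0.37 and 0.34) and Chrdl2 (-0.28 and -0.285).

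**Figure D2:**
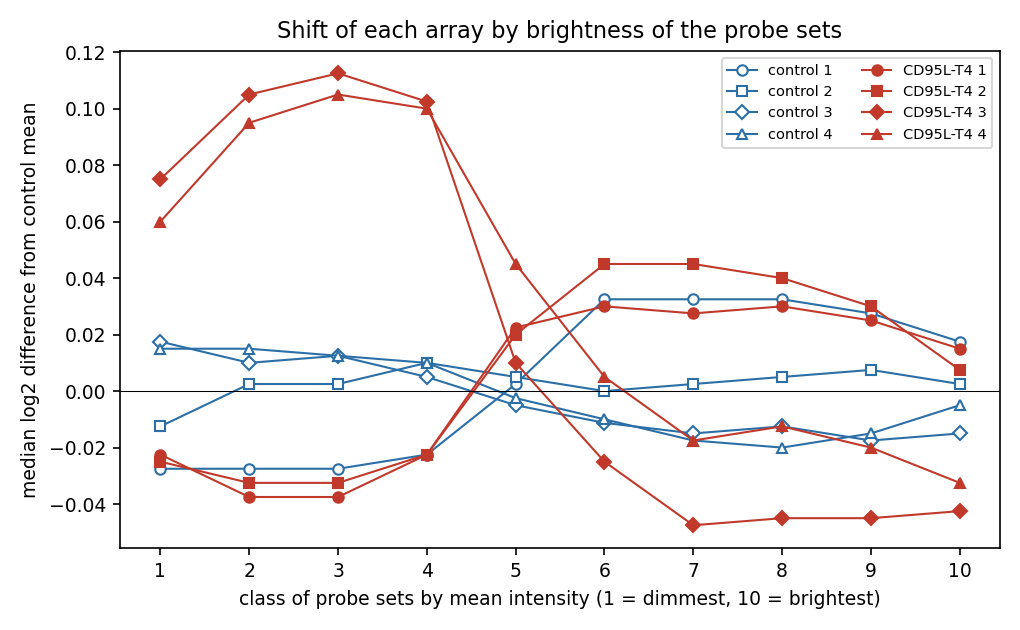
Median log2 difference of each array from the control mean (vertical) in 10 classes of the probe sets by mean intensity from dim to bright (horizontal), with open blue symbols for the 4 control and filled red symbols for the 4 CD95L-T4 arrays. CD95L-T4 replicates 3 and 4 lie about 0.1 above the control mean in class 3 and below 0 in class 10, whereas replicates 1 and 2 lie below 0 in dim and above 0 in bright classes.

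The gene with the smallest p was Tgfb1, which encodes the secreted cytokine TGF-beta1, a regulator of growth and differentiation in many tissues. Its values were 5.29, 4.99, 5.30 and 5.22 in CD95L-T4 replicates 1 to 4 and 4.77, 4.8, 4.70 and 4.82 in control. All CD95L-T4 values lay above all control values, and replicate 2 was the lowest of the treated ones. The means were 5.20 ± 0.14 and 4.77 ± 0.053 (SD, n = 4 each), a log2 difference of 0.43 ± 0.076 (SE) with a 95% interval from 0.27 to 0.59. The limma adjusted p was 0.669, and over the alternatives it ran from 0.064 (without CD95L-T4 replicate 2) to 1. The difference itself stayed between 0.37 and 0.50. A single probe set measured the gene, and it lay in the dimmer 50% of probe sets.

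The other 11 genes of smallest p in the higher direction all had a limma adjusted p of 0.997. In all 12 the groups did not overlap, against 1.78% of all genes in that direction. A choice by smallest p from the same arrays favours such genes, so this is no separate support. The 12 differences ran from 0.28 to 0.56, 11 of the 12 genes were in the dimmer 50% of probe sets, and 10 had a single probe set. Atoh1, a transcription factor that commits progenitors to certain neuronal fates, read 4.50, 4.66, 4.87 and 4.92 after CD95L-T4 and 4.17, 4.39, 4.22 and 4.41 in control. Its difference was 0.44 ± 0.094 (SE), with replicates 3 and 4 highest, and 0.28 without them. Mchr1, the receptor of melanin-concentrating hormone, read 6.13, 6.12, 6.15 and 6.21 against 5.79, 5.71, 5.84 and 5.80. That difference, 0.37 ± 0.087 (SE), came with little spread in either group (SD 0.040 and 0.054, n = 4). Rab40b, a RAB-like GTPase gene, read 5.0, 4.96, 4.86 and 4.91 against 4.62, 4.18, 4.01 and 4.66, a difference of 0.56 ± 0.14 (SE). Control replicates 2 and 3 were the low values there, and the gene's other probe set stood at -0.080.

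Sema5b, a transmembrane semaphorin that guides axons, read 5.97, 5.85, 5.66 and 5.85 after CD95L-T4 and 5.60, 5.34, 5.57 and 5.23 in control. Its difference was 0.40 ± 0.10 (SE), and 0.47 without CD95L-T4 replicates 3 and 4. Tgm3, a transglutaminase, stood at 0.41 ± 0.11 (SE), and Cd52, a small glycoprotein of the lymphocyte surface, at 0.39 ± 0.096. Tpsg1, a mast cell tryptase, Fam50b, Itfg2, Lce1g, a protein of the cornified skin envelope, and Igk, the immunoglobulin kappa locus, lay between 0.28 and 0.34. Igk was measured by several probe sets, which stood at 0.30, 0.095, -0.060 and -0.16.

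In the lower direction the 12 genes of smallest p had differences from -0.44 to -0.22 and a limma adjusted p of 0.997 each. Groups were apart in 9 (0.96% of all genes in that direction), which the choice by p favours here too. Here 7 of the 12 were in the dimmer 50%. Chrdl2, an extracellular antagonist of bone morphogenetic proteins, read 3.59, 3.78, 3.74 and 3.64 after CD95L-T4 and 3.95, 4.0, 3.87 and 4.06 in control. Its difference was -0.28 ± 0.071 (SE), with an interval from -0.43 to -0.13. Ell2, an elongation factor of RNA polymerase II, read 9.26, 9.15, 8.81 and 8.71 against 9.35, 9.37, 9.28 and 9.53. Replicates 3 and 4 were the lowest values, and the difference of -0.40 ± 0.11 (SE) was -0.18 without them. Rpl37, a protein of the large ribosomal subunit, read 10.10, 10.34, 9.97 and 10.20 against 10.54, 10.36, 10.49 and 10.42, a difference of -0.30 ± 0.084 (SE).

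Other genes of this set also had their lowest values in CD95L-T4 replicates 3 and 4. Atp6v1g1, a subunit of the proton pump that acidifies lysosomes, read 11.43, 11.37, 11.01 and 11.16 against 11.54, 11.51, 11.52 and 11.53. Its difference was -0.28 ± 0.081 (SE), and its other 2 probe sets stood at -0.033 and 0.21. Pkib, an inhibitor of protein kinase A, read 8.52, 8.41, 7.95 and 8.03 against 8.56, 8.52, 8.55 and 8.68. That difference of -0.35 ± 0.11 (SE) was -0.11 without replicates 3 and 4. Stap2, a signalling adaptor, was even in both groups, at 5.59, 5.63, 5.59 and 5.65 against 5.87, 5.84, 5.83 and 5.79, and its second probe set stood at 0.20. Bspry, Icam2, an adhesion molecule, Lbh, Sdccag8, a centrosomal protein, Ripor2 and Sult1d1, a sulfotransferase, lay between -0.44 and -0.24. The second probe set of Lbh stood at 0.17, also at an unadjusted p under 0.05. The plot of values by array shows which arrays carried each difference.

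**Figure D3:**
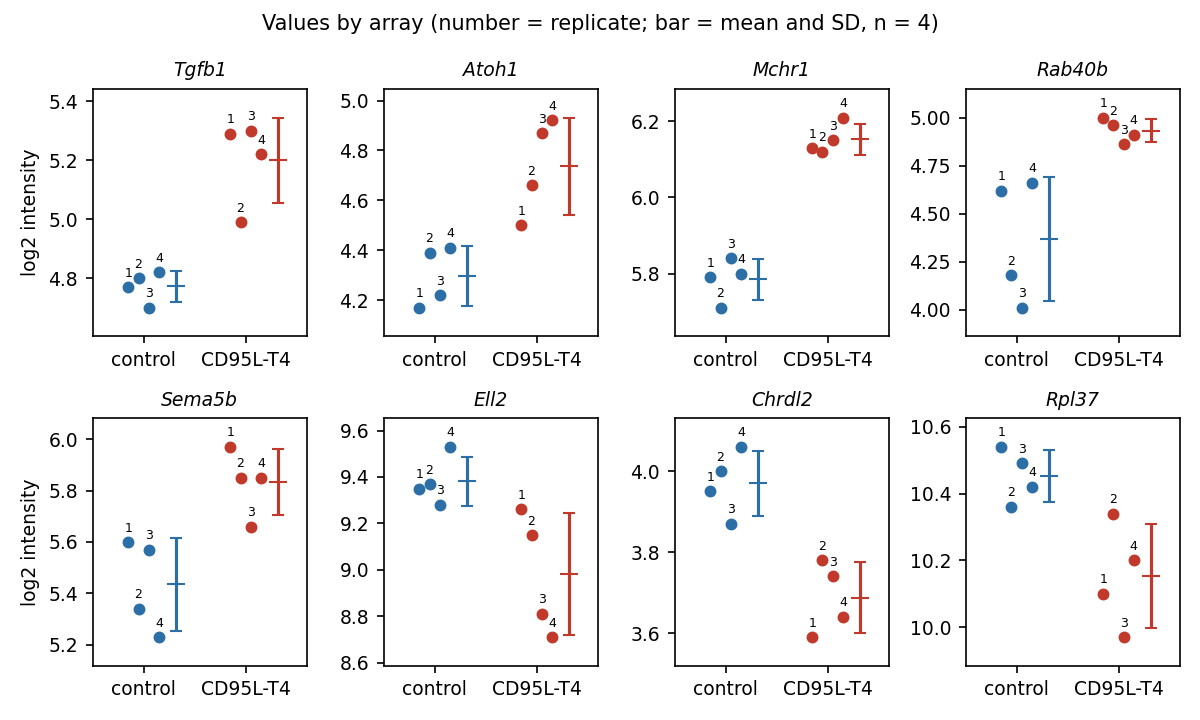
Log2 intensity (vertical) of 8 genes among those of smallest p, with 1 point per array numbered by replicate, control in blue and CD95L-T4 in red; the bar beside each group is the mean and SD (n = 4). The groups do not overlap in any of these genes, which were chosen by small p from the same arrays. Ell2 is lowest in CD95L-T4 replicates 3 and 4, and Rab40b varies most in control.

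The machinery of the receptor itself showed no difference past the test. Of 32 listed genes of CD95, its adaptor, caspases and their inhibitors, 27 were measured and 0 were called (0% of all probe sets were). At an unadjusted p under 0.05 were 0 of the 27 genes (background 3.44%). Their median difference was 0.005, against 0.015 over all genes, with 14 above and 12 below 0, and it turned below 0 under each other scaling (-0.0017 with quantile normalization over the 8 arrays, -0.011 with equal medians). The interval lay within the 25% bound for 24 of 27 members (88.9%, against 73.1% of all genes) and within 1.5-fold for all 27 (99% of all genes). In no member were the groups apart (1.78% of all genes in the higher and 0.96% in the lower direction).

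Fas, the receptor, read 4.55, 4.45, 4.42 and 4.69 after CD95L-T4 and 4.62, 4.63, 4.39 and 4.47 in control. The means were equal at 4.53 ± 0.12 (SD, n = 4) in each group, and the interval allowed a change of up to 1.19-fold in either direction. The Fas probe set was dim, so this bounds its measured intensity, and how far that follows its mRNA was not tested. The endogenous ligand Fasl, also on a dim probe set, stood at 0.11 ± 0.087 (SE). Its measured intensity was bounded by 1.22-fold higher and 1.05-fold lower. The adaptor Fadd stood at 0.065 ± 0.086, bounded by 1.19-fold and 1.08-fold. Casp8, the initiator caspase, read 3.83, 3.82, 4.13 and 4.14 against 3.88, 3.72, 4.05 and 3.71, a difference of 0.14 ± 0.094 (SE) with an upper bound of 1.26-fold. Its probe set was dim, its high CD95L-T4 values were those of replicates 3 and 4, and the difference was -0.015 without them. Cflar, the caspase-8 inhibitor c-FLIP, stood at -0.045 ± 0.10 (SE), with its other probe sets at -0.0875, -0.013 and 0. Bid, which carries the signal to mitochondria, stood at -0.010 ± 0.082 (SE) and was bounded by 1.12-fold higher and 1.13-fold lower.

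The extremes of the list were Tnfrsf10b, the death receptor of TRAIL, at 0.18 ± 0.10 (SE) and Aifm1, a mitochondrial flavoprotein with a role in cell death, at -0.12 ± 0.092. Aifm1 read 10.18, 10.11, 9.89 and 9.85 after CD95L-T4 and 10.19, 10.08, 10.15 and 10.09 in control, so the low values were in replicates 3 and 4, and the difference was 0.018 without them.

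Among 17 measured genes of the BCL2 family, which sets the threshold of mitochondrial death, 1 was higher and 1 lower at an unadjusted p under 0.05 (background 3.44%). Bak1, a pore former of the outer mitochondrial membrane, read 7.46, 7.39, 7.55 and 7.25 after CD95L-T4 and 7.20, 7.18, 7.09 and 7.37 in control. The groups overlapped through CD95L-T4 replicate 4 and control replicate 4, and the difference was 0.20 ± 0.091 (SE, limma adjusted p = 0.997), with its second probe set also at 0.20. Bbc3 (PUMA), a p53 target that activates BAX and BAK, read 6.56, 6.58, 6.30 and 6.69 against 6.72, 6.85, 6.68 and 6.83, a difference of -0.24 ± 0.085 (SE). The family's median was 0.0475, with 14 members above and 3 below 0, where 6936 of 12393 genes lay above 0. Within the 25% bound were 13 of 17.

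In the kinase branch 25 of 35 genes were bounded within the 25% bound (71.4%, against 73.1% of all genes). Of these 35 measured genes of SRC family kinases, PI3K, Akt and mTOR, 0 were higher and 1 lower at an unadjusted p under 0.05 (background 3.44%), and the median was -0.015. Src stood at 0.033 ± 0.11 (SE), Pik3ca, a catalytic subunit of PI3K, at -0.015 ± 0.14, Akt1 at 0.020 ± 0.096 and Mtor at 0.010 ± 0.098. The upper bounds of these 4 genes were 1.20-fold, 1.21-fold, 1.17-fold and 1.16-fold. Eif4ebp1, the translational repressor that mTOR phosphorylates, stood at -0.085 ± 0.088 (SE), bounded by 1.07-fold higher and 1.21-fold lower. The gene at an unadjusted p under 0.05 was Yes1, a SRC family kinase, with 8.57, 8.49, 7.95 and 7.97 after CD95L-T4 and 8.53, 8.45, 8.53 and 8.54 in control. Its CD95L-T4 replicates 3 and 4 lay below all control values, and its difference of -0.27 ± 0.12 (SE) was 0.018 without them. Rheb, the GTPase that activates mTOR, had groups apart at a small size, 11.99, 11.95, 11.96 and 11.99 against 12.01, 12.05, 12.04 and 12.12. The list held the lowest value of all genes, that of Ddit4, described with the wide intervals below.

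A pathway list of NF-kB and TNF signalling, not limited to transcriptional targets, held 25 measured genes. Of these 1 was higher and 1 lower at an unadjusted p under 0.05 (8%, against 3.44% of all genes), and the median was 0.0425, or 0.020 without CD95L-T4 replicates 3 and 4. Cxcl1, a neutrophil chemokine, read 3.22, 3.02, 3.26 and 3.12 after CD95L-T4 and 2.87, 2.84, 2.97 and 2.96 in control. Its groups were apart at a difference of 0.24 ± 0.082 (SE), on a probe set among the dimmest of the array. Nfkbie, an inhibitor of NF-kB, stood at -0.31 ± 0.12 (SE), with overlapping groups. The 27 immediate early genes encode transcription factors and feedback regulators that respond within minutes of a stimulus. None of them was at an unadjusted p under 0.05 at 48 h (background 3.44%). Their extremes were Nr4a2 at 0.17 ± 0.087 and Jun at -0.22 ± 0.17 (SE). The CD95L-T4 values of Jun were 10.09, 9.66, 9.52 and 9.36, against 9.59, 10.08, 9.97 and 9.88, and its difference without replicates 3 and 4 was -0.0050.

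Ligands, receptors, activators and targets of TGF-beta were measured as 32 genes, Tgfb1 among them, with a median of 0.020. Of the 31 other than Tgfb1, 1 was higher and 0 lower at an unadjusted p under 0.05 (background 3.44%). That gene was Nrros, which anchors latent TGF-beta1 on microglia and macrophages, with 5.01, 4.91, 5.05 and 5.07 after CD95L-T4 and 4.70, 4.79, 4.70 and 4.66 in control. Its groups were apart and its difference was 0.30 ± 0.084 (SE, limma adjusted p = 0.997). Tgfb2, another ligand, had the lowest value of the list at -0.085 ± 0.12 (SE), with a lower bound of 1.26-fold.

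Genes of neural stem cell identity did not differ past the test, and 3 of the 28 measured lay in the dimmest 25% of the array. Nes, the intermediate filament nestin of neural progenitors, read 10.77 to 11.33 on the 8 arrays and stood at 0.013 ± 0.13 (SE). Sox2, a transcription factor of stem cell maintenance, read 11.68, 11.72, 11.32 and 11.34 after CD95L-T4 and 11.71, 11.63, 11.71 and 11.72 in control. Its low values were those of replicates 3 and 4, and its difference of -0.18 ± 0.12 (SE) was 0.0075 without them. Hes5, a Notch target, stood at -0.13 ± 0.10 (SE). Of 28 measured genes of neural stem cell identity, 1 was at an unadjusted p under 0.05 (3.57%, against 3.44% of all genes). It was Lfng, a modifier of Notch, at 0.15 ± 0.066 (SE), with its other probe set at -0.23. The list's median was -0.014, and 0.0063 under quantile normalization. In these bulk samples a smaller share of cells of a type and less RNA per cell cannot be told apart.

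Markers of differentiated neural cells were measured on the same arrays. Neuronal markers, 20 genes, had a median of 0.011 that turned below 0 under each other scaling (-0.018 with quantile normalization over the 8 arrays), with 2 at an unadjusted p under 0.05 (10%, against 3.44% of all genes). Of the 20 markers 8, Snap25 among them, lay in the dimmest 25% of the array. Snap25, a protein of synaptic vesicle release, read 4.27, 4.17, 4.38 and 4.05 after CD95L-T4 and 4.13, 3.46, 4.07 and 3.59 in control, a difference of 0.41 ± 0.15 (SE) with overlapping groups. Dlx1, a transcription factor of interneuron progenitors, read 6.22, 6.22, 6.01 and 6.07 against 5.68, 6.03, 5.97 and 5.79, a difference of 0.26 ± 0.12 (SE). Tubb3 and Dcx, markers of young neurons, stood at 0.053 ± 0.12 and -0.028 ± 0.14 (SE).

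Astrocyte markers, 15 genes, had a median of -0.0075. Agt, angiotensinogen, which astrocytes make in the brain, read 7.53, 7.58, 7.44 and 7.48 after CD95L-T4 and 7.68, 7.68, 7.73 and 8.17 in control. Control replicate 4 stood above the rest there, and the difference was -0.31 ± 0.11 (SE, limma adjusted p = 0.997) with groups apart. Gfap, the astrocyte filament protein, stood at 0.12 ± 0.15 (SE). Oligodendrocyte lineage markers, 13 genes, had the highest median of the 27 lists, 0.10, with none at an unadjusted p under 0.05 (background 3.44%). The medians of the single CD95L-T4 arrays were -0.025, -0.0075, 0.0825 and 0.11, and without replicates 3 and 4 the list's median was 0.015. Olig2, a transcription factor of this lineage that neurosphere cells also make, stood at 0.040 ± 0.088 (SE), and Cspg4 (NG2), a progenitor marker, was its highest member at 0.18 ± 0.098.

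Cells of other kinds would show in markers of microglia, endothelium, fibroblasts and ependyma. Of these 39 measured genes, 0 were at an unadjusted p under 0.05 (background 3.44%), and 19 lay in the dimmest 25% of the array. The mean level of the 15 microglial markers was 4.43 to 4.49 in control arrays and 4.36 to 4.61 in CD95L-T4 arrays. For the 11 endothelial markers it was 4.56 to 4.6 and 4.54 to 4.70, and for the 10 of fibroblasts and pericytes 4.62 to 4.72 and 4.62 to 4.8. The microglial median was 0.023, with 9 of 15 markers above 0, and it turned to -0.014 under quantile normalization over the 8 arrays and to -0.035 without CD95L-T4 replicates 3 and 4. The extremes of that list were Aif1 (IBA1), a defining microglial protein, at -0.15 ± 0.11 and Lyz2, a lysozyme of macrophages, at 0.24 ± 0.12 (SE). The table has no detection calls, so a dim probe set cannot be called absent, and the part of such cells in any difference was not tested.

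Genes of cell division were among the closely bounded ones. Of 28 mitotic genes 25 (89.3%) and of 32 replication genes 31 (96.9%) were bounded within the 25% bound, against 73.1% of all genes. Both lists lay among the bright probe sets, where bounds were closer: in brightness class 9 the share of all probe sets was 83.7%, and in class 10 it was 87%. The list medians were 0.018 and 0.025, and 0.070 and 0.065 without CD95L-T4 replicates 3 and 4. The lowest mitotic member was Cenpe at -0.37, with an interval from -1.22 to 0.48. Mki67, the proliferation antigen, stood at 0.025 ± 0.11 (SE), bounded by 1.19-fold higher and 1.15-fold lower, and Ccnd1 (cyclin D1) at -0.025 ± 0.087, bounded by 1.12-fold and 1.16-fold. Bub1, a kinase of the spindle checkpoint, read 10.71, 10.74, 10.71 and 10.79 after CD95L-T4 and 10.65, 10.48, 10.58 and 10.52 in control. Its groups were apart at 0.18 ± 0.083 (SE), and its second probe set stood at 0.0025.

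Of 21 measured p53 targets, genes of cell cycle arrest and stress, 0 were higher and 5 lower at an unadjusted p under 0.05 (23.8%, against 3.44% of all genes), while the list's median was -0.015. Without CD95L-T4 replicate 3 that count was 2 of 21, and also 2 without replicates 3 and 4. Gadd45a, a stress-induced inhibitor of proliferation, read 10.59, 10.44, 10.32 and 10.32 after CD95L-T4 and 10.68, 10.64, 10.58 and 10.88 in control, a difference of -0.28 ± 0.091 (SE). Ccng1, cyclin G1, read 11.10, 11.10, 10.82 and 10.84 against 11.17, 11.16, 11.25 and 11.19, with groups apart at -0.23 ± 0.081 (SE). Cdkn1a (p21), the cell cycle inhibitor, read 10, 10.11, 9.97 and 10.02 against 10.29, 10.40, 10.03 and 10.17, at -0.20 ± 0.093 (SE). The groups of Gadd45a, Cdkn1a and Bbc3 overlapped, and Perp, on a dim probe set, stood at -0.22 ± 0.076 (SE) with groups apart. All 5 had a limma adjusted p of 0.997.

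Stress and metabolic programmes gave few single genes. Among 27 genes of heat shock, metallothioneins and the antioxidant factor NRF2, 2 were lower at an unadjusted p under 0.05 (7.41%, against 3.44% of all genes), and the median was -0.0425, or -0.0075 without CD95L-T4 replicates 3 and 4. Mt1, a metal-binding metallothionein, read 11.21, 11.36, 11.34 and 11.30 after CD95L-T4 and 11.55, 11.45, 11.48 and 11.47 in control. Hmox1, heme oxygenase, read 8.20, 7.91, 7.88 and 8.14 against 8.26, 8.38, 8.25 and 8.21. Both had groups apart, at -0.18 ± 0.075 and -0.24 ± 0.090 (SE). Catalase (Cat) had the lowest value of the list, -0.24 ± 0.13 (SE), and its low values of 10.15 and 10.14 were those of replicates 3 and 4. Without them its difference was 0.023.

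None of 32 genes of the ATF4 and unfolded protein responses and none of 22 interferon response genes was at an unadjusted p under 0.05 (background 3.44%). In the former, Psat1 (serine synthesis) stood at 0.15 ± 0.10 and Ddit3 (CHOP) at -0.16 ± 0.084 (SE), each with groups apart. Their values were 11.83 to 11.91 against 11.68 to 11.75 for Psat1 and 7.47 to 7.54 against 7.56 to 7.73 for Ddit3. The other probe set of Psat1 stood at -0.19.

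Genes of cholesterol synthesis lay above 0 in 17 of 19 cases, where 6936 of 12393 genes did. Their median was 0.0625, and it was above 0 under every alternative, from 0.045 to 0.11. The medians of the single CD95L-T4 arrays were 0.16, 0.0725, 0.045 and 0.05, those of control arrays -0.035 to 0.0525, so the groups overlapped. Nsdhl, an enzyme of the late pathway, read 10.82, 10.77, 10.77 and 10.88 after CD95L-T4 and 10.68, 10.70, 10.71 and 10.53 in control, at 0.15 ± 0.070 (SE) with groups apart. Srebf2, the transcription factor of the pathway, stood at 0.15 ± 0.070 (SE). These 2 of 19 genes were at an unadjusted p under 0.05 (10.5%, against 3.44% of all genes) and had a limma adjusted p of 0.997. That count was 0 with equal medians, with the replicate block, without CD95L-T4 replicate 4 and without CD95L-T4 replicates 3 and 4. It was 1 in the fit of the 8 arrays alone and without CD95L-T4 replicate 1 or 3 or control replicate 1, 3 or 4.

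Energy metabolism stood near 0. The 27 genes of glycolysis and hypoxia had a median of 0.018 and 1 gene at an unadjusted p under 0.05 (3.7%, against 3.44% of all genes). That was the glucose transporter gene Slc2a3 at 0.30 ± 0.11 (SE), whose other probe sets stood at -0.13, 0.072 and 0.14. Of 80 genes of oxidative phosphorylation 54 lay below 0, where 5326 of 12393 genes did. Their median was -0.029, and -0.010 without CD95L-T4 replicates 3 and 4. The list lay among the bright probe sets, and the median over all probe sets of brightness class 10 was -0.0125. At an unadjusted p under 0.05, 2 of the 80 were lower (2.5%, against 3.44% of all genes). Ndufb6, a subunit of complex I, read 11.66, 11.48, 11.17 and 11.24 after CD95L-T4 and 11.64, 11.64, 11.59 and 11.67 in control. Its low values were again those of replicates 3 and 4, and its difference of -0.25 was -0.065 without them.

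The translation machinery lay among the bright probe sets, and most of it was closely bounded. Of 46 cytosolic ribosomal protein genes 42 (91.3%) and of 42 translation initiation and elongation factors 38 (90.5%) were bounded within the 25% bound, where 87% of all probe sets in brightness class 10 were. Their medians were -0.0063, which turned to 0.0083 under quantile normalization, and 0.022. Of the ribosomal genes 1, Rpl37, was at an unadjusted p under 0.05 (2.17%, against 3.44% of all genes). Of the factors 1 was as well (2.38%). It was Eif4e2, a cap-binding protein, at -0.23 ± 0.093 (SE), or -0.030 without CD95L-T4 replicates 3 and 4. Its other probe sets stood at 0.033, -0.065 and 0.040.

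Developmental signalling was described through Notch, Wnt and guidance genes. Of 39 genes of the Notch and Wnt pathways 5 were higher and 0 lower at an unadjusted p under 0.05 (12.8%, against 3.44% of all genes). Above 0 lay 30 of the 39, where 6936 of 12393 genes did. The median was 0.0425, between 0.026 and 0.060 under the alternatives. The count of 5 was 1 without CD95L-T4 replicate 4, 2 without control replicate 1, 2 without control replicate 4, 2 without CD95L-T4 replicates 3 and 4, and 3 without CD95L-T4 replicate 1, 2 or 3 or control replicate 3. Fzd2, a Wnt receptor, read 8.67, 8.67, 8.78 and 8.80 after CD95L-T4 and 8.46, 8.58, 8.44 and 8.50 in control, with groups apart at 0.23 ± 0.094 (SE). Lrp5, a Wnt co-receptor, read 4.42, 4.68, 4.28 and 5.05 against 4.33, 4.11, 4.17 and 4.34, where CD95L-T4 replicate 4 stood out. Dll4, a Notch ligand, Dkk3, a secreted protein related to Wnt antagonists, and Lfng stood at 0.25 ± 0.11, 0.18 ± 0.081 and 0.15 ± 0.066 (SE). Of 42 axon guidance genes 3 were higher and 0 lower, all semaphorins: Sema5b, Sema3c at 0.28 ± 0.10 and Sema7a at 0.18 ± 0.072 (SE). The share, 7.14%, stood against 3.44% of all genes. The count was 1 higher and 2 lower without control replicate 2, 6 higher without CD95L-T4 replicate 1 and 5 higher without control replicate 1. It was 0 of the 14 members left without the dimmest 50% of probe sets, and 2 higher without CD95L-T4 replicate 2, CD95L-T4 replicate 3 or control replicate 3. The axon guidance median was 0.020 and turned to -0.0081 under quantile normalization and to -0.0475 without CD95L-T4 replicates 3 and 4. The limma adjusted p of these 8 genes was 0.997.

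**Figure D4:**
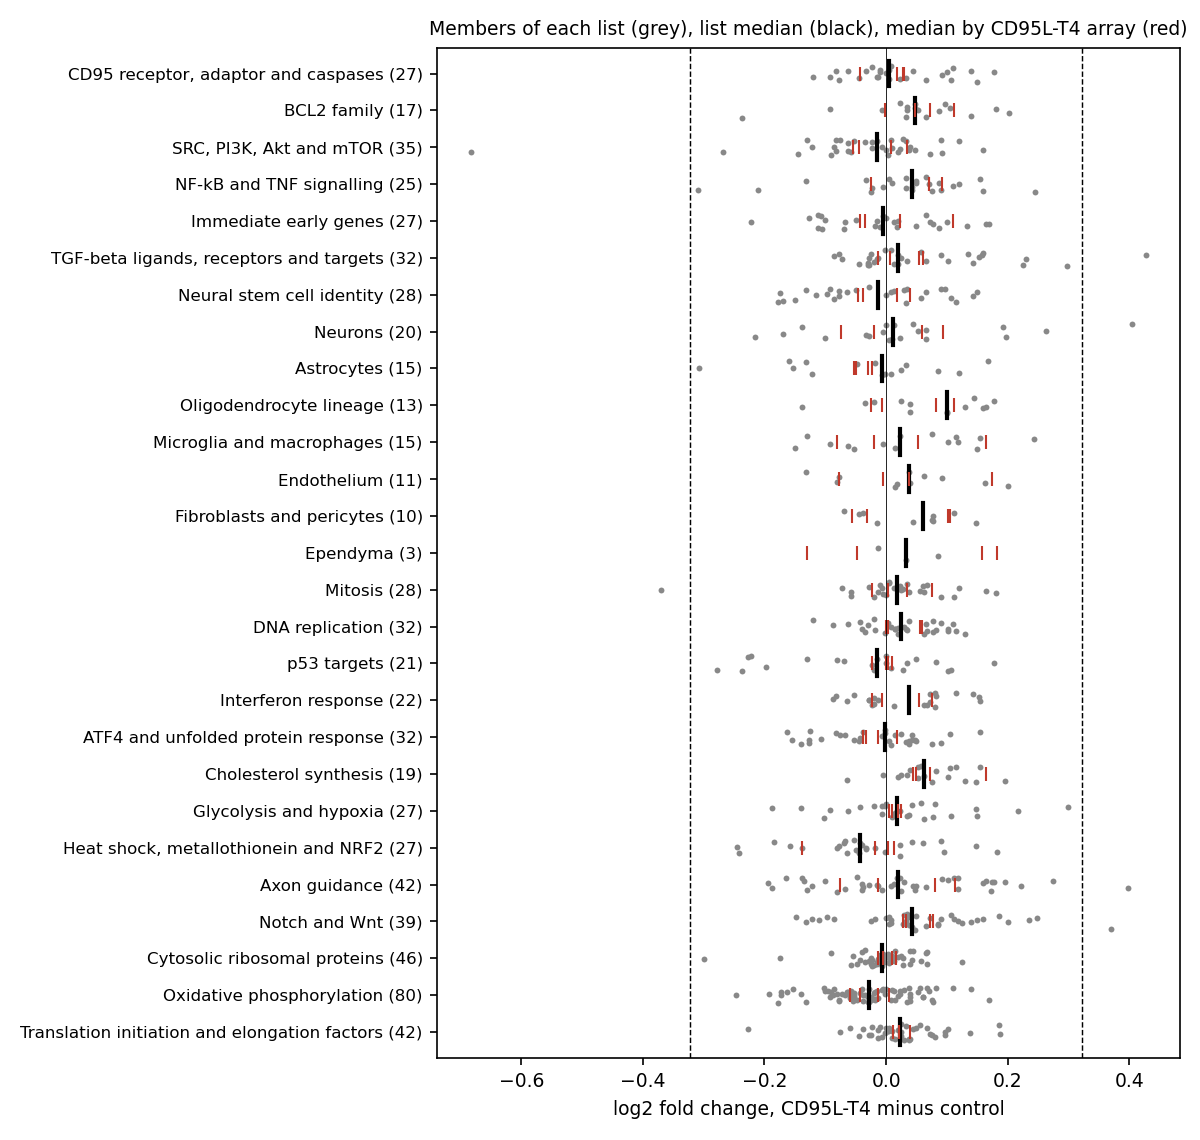
Log2 difference, CD95L-T4 minus control (horizontal), of each measured member (grey points) of 27 gene lists, with the number of members in brackets, the median of the list as a black bar and the list's median in each single CD95L-T4 array as red ticks; dashed lines mark the 25% bound. List medians run from -0.0425 (heat shock, metallothionein and NRF2) to 0.10 (oligodendrocyte lineage), and 4 members lie above that bound (Tgfb1, Snap25, Sema5b and Lrp5) and 2 below it (Ddit4 and Cenpe).

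The genes with the widest intervals differed between arrays of the same group by more than between groups. Ddit4 (REDD1), an inhibitor of mTOR induced by stress and hypoxia, read 8.51, 7.02, 7.05 and 7.12 after CD95L-T4 and 7.17, 8.78, 8.37 and 8.11 in control. Within each group 1 array stood apart from the other 3, CD95L-T4 replicate 1 high and control replicate 1 low. The difference was -0.68 ± 0.38 (SE), with an interval from -1.49 to 0.13, which allows a level up to 2.81-fold lower. It was -1.04 without CD95L-T4 replicate 1 and -0.34 without CD95L-T4 replicates 3 and 4. Cenpe, a kinesin of the kinetochore, read 8.69, 7.17, 7.01 and 6.54 against 6.79, 8.52, 7.84 and 7.74. Its difference was -0.37 ± 0.40 (SE), and 0.21 without CD95L-T4 replicates 3 and 4. Gatad2b, a subunit of the NuRD chromatin remodeller, read 9.24, 6.99, 8.45 and 6.97 against 6.88, 9.29, 9.05 and 8.96. Its difference was -0.63 ± 0.49 (SE). In all 3 genes CD95L-T4 replicate 1 and control replicates 2, 3 and 4 were above CD95L-T4 replicates 2 and 4 and control replicate 1. CD95L-T4 replicate 3 was low in Ddit4 and Cenpe and lay between these arrays in Gatad2b.

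Added poly-A control transcripts, which are spiked in before labelling, had a like order over the arrays. Their mean over 12 probe sets was 8.71, 7.85, 7.95 and 7.50 in CD95L-T4 and 7.55, 8.18, 8.10 and 8.09 in control. CD95L-T4 replicate 4 and control replicate 1 were lowest, CD95L-T4 replicate 1 highest. Vat1, a membrane protein of vesicles, ran the other way. Raly, an RNA-binding protein, did so in part, but not in control replicate 2, where it read 8.74 and the controls 8.18. Raly read 7.71, 9.63, 8.31 and 9.20 after CD95L-T4 and 9.45, 8.74, 7.23 and 7.49 in control, and Vat1 6.17, 7.62, 6.67 and 6.91 against 7.33, 6.04, 6.14 and 5.86. Sh3d19, Rnf25 and Inppl1 also were high in CD95L-T4 replicate 1 and control replicates 2, 3 and 4. The differences of the 12 genes with the widest intervals ran from -0.68 to 0.50 with standard errors of 0.29 to 0.49. In a fit of the 8 arrays alone, with the mean of the poly-A controls as a covariate chosen after seeing the data, Ddit4 stood at -0.72 ± 0.19 (SE), Cenpe at -0.41 ± 0.14 and Gatad2b at -0.69 ± 0.30. Their limma adjusted p was then 0.747, like that of Tgfb1, which stood at 0.43 ± 0.077 (SE). In the same fit Raly stood at 0.52 ± 0.40 and Vat1 at 0.53 ± 0.25 (SE). For Tgfb1 the highest and lowest values of a group did not follow these controls, as the plot against the labelling controls shows. The part of labelling in the values of any of these genes was not tested.

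**Figure D5:**
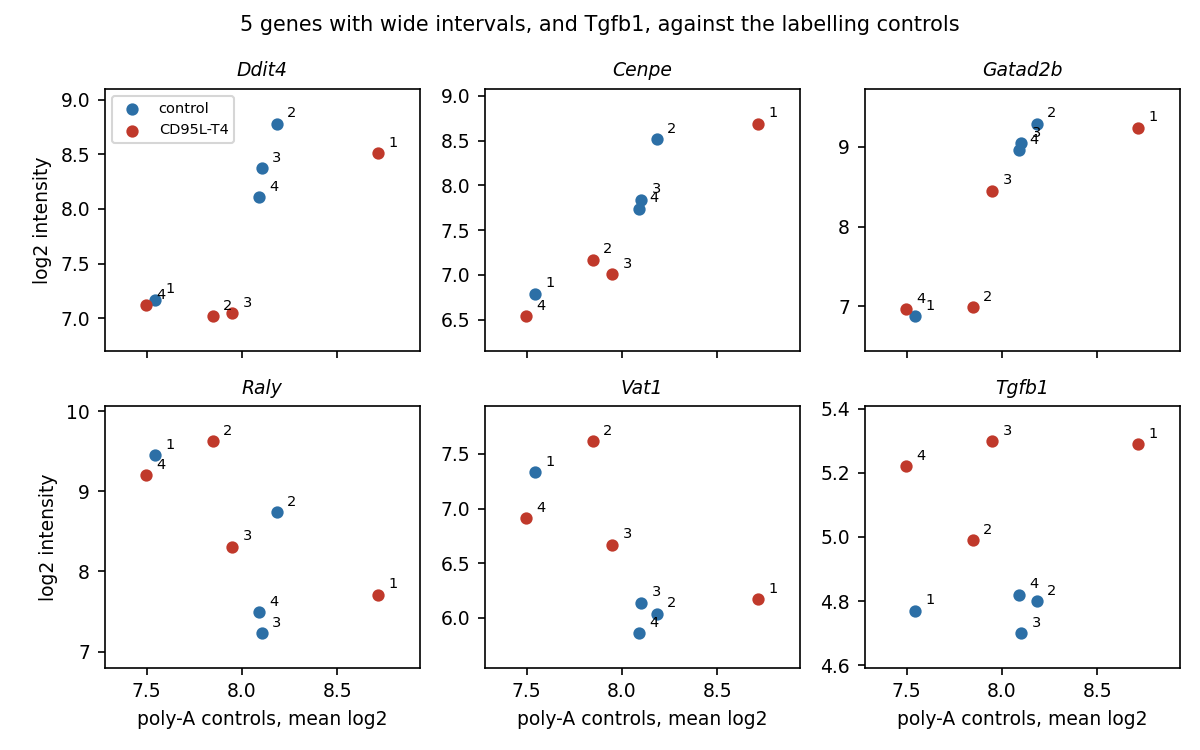
Log2 intensity (vertical) of Ddit4, Cenpe, Gatad2b, Raly, Vat1 and Tgfb1 against the mean log2 intensity of the 12 poly-A control probe sets (horizontal) on each of the 8 arrays, numbered by replicate, control in blue and CD95L-T4 in red. The first 3 genes are low in CD95L-T4 replicate 4 and control replicate 1, where the controls are lowest, Raly and Vat1 are high there, and Tgfb1 parts by group.

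The 12 genes with the narrowest intervals were mostly of the translation machinery: Eef1a1, an elongation factor, the ribosomal genes Rps3a1, Rpl38, Rps10, Rps3, Rpl27, Rps20, Rpl13a and Rps4x, together with Txn1 (thioredoxin), Fabp5 (a fatty acid binding protein) and Mapk9 (JNK2, a stress kinase). Their differences ran from -0.043 to 0.045, and each 95% interval ended within 1.12-fold. Mapk9 read 9.24, 9.27, 9.29 and 9.26 after CD95L-T4 and 9.24, 9.21, 9.22 and 9.21 in control.

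Genes measured by several probe sets gave a check inside the array. Of 3057 genes with 2 probe sets 1665 (54.5%) had the same sign in both, and over the 4956 genes with several the median gap between a gene's lowest and highest difference was 0.11. Of 449 genes with any probe set at an unadjusted p under 0.05, 19 had at least 2 in the same direction, and the following were picked from them after their values were seen. Nupr1, a stress-induced chromatin protein, read 7.42, 7.31, 7.42 and 7.34 after CD95L-T4 and 7.73, 7.49, 7.61 and 8.06 in control. Its groups were apart in both probe sets, at -0.35 ± 0.13 and -0.31 ± 0.12 (SE). Tnfrsf21 (death receptor 6), a receptor of the same family as CD95, read 9.87, 10.10, 9.85 and 9.98 against 10.28, 10.09, 10 and 10.34. Its 2 probe sets stood at -0.23 ± 0.092 and -0.19 ± 0.089 (SE), with overlapping groups.

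Grn, the lysosomal growth factor progranulin, had 3 probe sets at -0.27, -0.15 and -0.25, 2 of them at an unadjusted p under 0.05. In Prdx4, a peroxiredoxin of the endoplasmic reticulum, 2 of 3 probe sets were lower at an unadjusted p under 0.05. The probe set with the lowest difference read 9.74, 9.46, 8.51 and 8.35 after CD95L-T4 and 9.60 to 9.65 in control. The brightest probe set of the same gene read 10.72, 10.68, 10.52 and 10.55 and stood at 0.013 ± 0.098 (SE). Both of these probe sets were lower in CD95L-T4 replicates 3 and 4 than in replicates 1 and 2, but by unlike amounts. The limma adjusted p of every probe set named here was 0.997.

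Polysomal RNA, the mRNA bound by ribosomes, was measured in the same series on 3 CD95L-T4 and 4 control arrays of their own, and the labels do not say whether it came from the same cultures. In limma 0 of 22626 probe sets had a treatment effect that differed between total and polysomal RNA, with a lowest adjusted p of 0.897 and 992 at an unadjusted p under 0.05. Tgfb1, at 0.43 in total RNA, stood at -0.025 in polysomal RNA, and Atoh1, at 0.44, stood at -0.078. Sema5b stood at 0.40 ± 0.10 and 0.37 ± 0.11 (SE), and Snap25, on a dim probe set, at 0.41 ± 0.15 and 0.43 ± 0.16. Pkib stood at -0.35 and -0.47, Lbh, whose second probe set ran the other way in total RNA, at -0.25 and -0.27, and Ddit4 at -0.68 and 0.74. Of the 12 genes of smallest p in the higher direction 5 had the same sign in polysomal RNA, and of the 12 in the lower direction 9.

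Over all genes the sign was the same in 53.7%. Of genes at an unadjusted p under 0.05 in total RNA it was the same in 144 of the 270 higher ones (53.3%) and 112 of the 156 lower ones (71.8%). At an unadjusted p under 0.05 with the same sign in both fractions were 44 genes, 20 higher and 24 lower, which is 10.3% of the 426 in total RNA and 3.74% of the 1176 in polysomal RNA. Over all 12393 genes, 771 (6.22%) were at that p in polysomal RNA with the sign of total RNA. Another 14 of the 426 were at that p in polysomal RNA with the opposite sign. Picked from these after their values were seen, Nupr1 stood at -0.35 and -0.53, Mt1 at -0.18 and -0.21, Nsdhl at 0.15 and 0.20 and Sox21, a transcription factor of neural progenitors, at 0.20 and 0.26.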

How the data were processed

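Affymetrix arrays were analysed from the series' deposited table, whose values are log2 intensities that the authors had normalised between arrays. The method and the chip's processing are not given in the sources used here. Values carry 2 decimals. Members, gene lists and tests were chosen with earlier results of these data known. Of 22690 probe sets, 64 Affymetrix controls were left out. Of the 22626 tested, 20380 had 1 gene, 691 several and 1555 none. Each of 12393 genes was represented by its probe set of highest mean over all 15 arrays, and 12369 were found in the reference gene table (GRCm38.p6), used for names only.

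limma 3.58.1 under R 4.3.3 was fitted with 1 mean per group over all 15 arrays, so that the groups shared 1 spread (5.78 prior and 11 residual degrees of freedom). The test was two-sided, adjusted by Benjamini and Hochberg over 22626 probe sets, with a threshold of 0.05. Errors of differences are its moderated standard errors and intervals are at 95%. The steps were tested on simulated data. Named genes were the 12 of smallest p in each direction, the extremes of each list, the 12 widest and 12 narrowest intervals and fixed genes of CD95 signalling and cell identity. List members at an unadjusted p under 0.05 or with groups apart were added after their values were seen. Gene lists were described by counts and medians, with no set test.

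Alternatives were quantile normalization over 8 or 15 arrays, equal medians, leaving out the dimmest 25% or 50%, fitting the 8 arrays alone with and without a replicate block, a trended robust variance, array weights, the mean of a gene's probe sets and leaving out each array. Leaving out CD95L-T4 replicates 3 and 4, and the poly-A controls as a covariate, were chosen after seeing the data. Arrays have no read depth, and their number limits the precision.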

Additional observations from a re-analysis of the deposited data

Results flagged for a closer look

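In groups of 4 arrays, 16 of 242 sets of values had 1 array far from the other 3 by the Dixon criterion, which is 6.61%, where chance gives about 1 in 20. The poly-A control mean of control replicate 1 was 7.55, against 8.09 to 8.18 in the other control arrays. Ddit4 read 8.51 in CD95L-T4 replicate 1 against 7.02 to 7.12 in the other CD95L-T4 arrays, Gatad2b read 6.88 in control replicate 1 against 8.96 to 9.29, and Malat1, a long noncoding RNA, read 12.03 in control replicate 2 against 10.59 to 10.76. Control replicate 4 was apart in Agt at 8.17 (others 7.68 to 7.73), Igk at 4.0 (4.30 to 4.35), Bspry at 4.92 (5.0 to 5.01), Fadd at 8.12 (8.17 to 8.18) and Rpl13a at 13.62 (13.67 to 13.68).

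Among markers, Cspg4 read 7.51 in CD95L-T4 replicate 1 against 7.87 to 7.94, Rgs5, a pericyte gene, read 4.10 in control replicate 2 against 3.79 to 3.83, and Sox2 read 11.63 in control replicate 2 against 11.71 to 11.72. Cox4i2, a subunit of respiratory complex IV, read 5.06 in CD95L-T4 replicate 4 against 4.74 to 4.78. The remaining gaps were small. Rps10 read 13.69 in CD95L-T4 replicate 2 against 13.65 in the other 3, Rps3 13.41 in CD95L-T4 replicate 3 against 13.35, and Rps4x 13.81 in control replicate 1 against 13.78. The causes of these values were not tested.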

How the results depend on the processing

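Under all 20 alternatives, 0 probe sets passed the adjusted threshold in limma. The count at an unadjusted p under 0.05, 846 of 22626, ran from 550 to 1688 when 1 array was left out (1688 without CD95L-T4 replicate 1, 550 without CD95L-T4 replicate 4). In the 8 arrays alone it was 1017, and 1450 when the poly-A controls entered that fit as a covariate. Where fewer features were tested, the counts were smaller by construction. Without the dimmest 50% of probe sets, 375 of 11313 were at that unadjusted p, 11098 were bounded within 1.5-fold and 274 had groups apart, against 22213 and 571 in the main setting. With the mean of a gene's probe sets, the counts were 446, 12304 and 346 of 12393 genes.

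Same-numbered arrays of the groups did not deviate together (correlations of their deviations from the group means of -0.23, -0.039, 0.17 and -0.02), so the replicate numbers were not taken as pairs. With the replicate block on the 8 arrays alone, 0 probe sets were called and 1024 were at an unadjusted p under 0.05, against 1017 without the block. Of 115 named genes, 16 changed sign without CD95L-T4 replicates 3 and 4, 9 with the mean of a gene's probe sets, and 4 under each of the other scalings. The number of arrays and the dimness of many probe sets limit what can be detected, and brightness is no measure of abundance between genes.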
